A study of Mus musculus with 9 samples.

Results

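The members of the family of regulators of G protein signaling (RGS) that the study's gene table lists by name were examined in splenic B cells: Rgs1, Rgs2, Rgs3, Rgs10, Rgs13, Rgs14, Rgs16, Rgs18 and Rgs19. They were found in the table by gene name, and are 9 of the 22137 genes of the reference used for testing and 9 of its 21 genes named Rgs with a number. RNA-sequencing had been performed on 1 library per mouse from 3 Eµ-MTCP1 mice, 3 Eµ-TCL1 mice and 3 wildtype mice, all of strain C57/BL6NTac, with B cells taken from the spleen with a pan B cell isolation kit. Eµ-MTCP1 mice carry the human MTCP1 cDNA (hMTCP1) under an immunoglobulin heavy chain promoter and the Eµ enhancer, which drives expression in B cells, and all 3 descend from a single founder line, Z36, in which the transgene lies within Fam168a. Eµ-TCL1 mice carry the human TCL1 gene (hTCL1) under the same kind of control. Wildtype mice were littermates without a transgene. The mice are described as age-matched, with overt leukemia in the transgenic groups, and exact ages are not given in the sources used here.

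RGS proteins bind the active alpha subunit of a heterotrimeric G protein and speed its hydrolysis of GTP, which ends the signal of the receptor that switched it on. In B cells the receptors concerned include those for chemokines and for lipids such as sphingosine 1-phosphate, which guide the cells through follicles, marginal zone and germinal centers. Rgs1, Rgs2, Rgs3, Rgs13, Rgs16 and Rgs18 belong to the R4 group, small proteins that are often induced by activation. Rgs10 and Rgs14 belong to the R12 group, and Rgs19, also called GAIP, to the RZ group.

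The human transgenes fitted the labels in all 9 libraries: on the log2 scale of the authors, TCL1A lay between 14.9 and 15.6 in Eµ-TCL1 mice and between 6.04 and 6.96 elsewhere, and MTCP1 between 11.1 and 12.3 in Eµ-MTCP1 mice and between 5.85 and 6.19 elsewhere. Libraries held 6464089 to 8053017 reads on the reference used for testing, so that the floor of 3 reads corresponded to 0.373 to 0.464 CPM, the unit that sets the reads of a gene against the size of its library. The CPM of single genes are further scaled by TMM, which allows for differences in composition between libraries. Mitochondrial genes took 2.91 to 10.7% of the reads. Of the B-cell markers, Cd79a, a part of the B-cell receptor complex, lay between 2424 and 4074 CPM and Ms4a1, which encodes CD20, between 366 and 780 CPM in all 9 libraries. The library of wildtype mouse Z2755 was sequenced on another lane than the other 8, and that lane holds no other library. Without it, 0 members were called in any comparison by edgeR.

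Of the 9 members, 5 lie on mouse chromosome 1 and 4 of these in 1 cluster. Between chr1:143999338 and chr1:144775435 (GRCm38), a stretch of 776 kb, the annotation holds 5 protein-coding genes, which are Rgs2, Rgs13, Rgs1, Rgs21 and Rgs18. All 4 members in it are read from the minus strand: Rgs2 at chr1:143999338-144004161, Rgs13 at chr1:144138654-144177372, Rgs1 at chr1:144242296-144249242 and Rgs18 at chr1:144752683-144775435. Rgs16 lies outside the cluster at chr1:153740349-153745468, on the plus strand. The others are Rgs3 at chr4:62559847-62704001 (plus strand), Rgs10 at chr7:128373621-128418758 (minus), Rgs14 at chr13:55369732-55384687 (plus) and Rgs19 at chr2:181688419-181693977 (minus).

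The 250 bases before the annotated start are shown for a pair of neighbours in this cluster that differ most in level among its members, Rgs2 (chr1:144004150-144004399, minus strand) and Rgs13 (chr1:144177373-144177622, minus strand), from RefSeq on GRCm38.p6. Capitals mark the letters TGACG or their reverse complement CGTCA, the half-site of the cAMP response element (CRE).
Rgs2: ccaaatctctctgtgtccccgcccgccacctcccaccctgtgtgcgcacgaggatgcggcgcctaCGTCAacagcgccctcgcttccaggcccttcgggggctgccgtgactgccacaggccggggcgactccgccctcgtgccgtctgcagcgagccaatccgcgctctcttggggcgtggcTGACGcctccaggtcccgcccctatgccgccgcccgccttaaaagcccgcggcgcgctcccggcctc
Rgs13: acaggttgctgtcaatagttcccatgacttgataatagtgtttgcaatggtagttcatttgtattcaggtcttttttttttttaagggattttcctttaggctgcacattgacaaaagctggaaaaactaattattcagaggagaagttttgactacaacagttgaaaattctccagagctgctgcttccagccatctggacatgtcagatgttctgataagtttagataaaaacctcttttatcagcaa
The Rgs2 window holds the half-site 2 times, and 17.8% of all 32851 windows of this length hold it at least once on either strand. Neither of these windows, nor any of the 9 windows of the 6 members found in the table (Rgs2, Rgs3, Rgs10, Rgs13, Rgs16 and Rgs19), holds the full element TGACGTCA, which occurs in 1.55% of all windows. The Rgs2 window has 30 CpG dinucleotides, more than 94.1% of windows, and the Rgs13 window has 0, against a median of 6. Such matches describe the letters only.

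Per unit length, Rgs2 and Rgs19 were the most abundant members in wildtype B cells. In TPM, the transcript abundance that divides reads by length, wildtype levels were 248 ± 41.9 (SD, n = 3) for Rgs2, 154 ± 27 for Rgs19, 60.9 ± 9.16 for Rgs1, 39.3 ± 5.66 for Rgs14 and 32.1 ± 10.5 for Rgs10. Rgs3 (12.1 ± 5.33), Rgs18 (7.76 ± 3.73) and Rgs13 (2.86 ± 1.05) followed, and Rgs16 was last at 0.274 ± 0.320 TPM. In this order the ranges of Rgs14 and Rgs10 overlapped, as did those of Rgs3 and Rgs18 and of Rgs18 and Rgs13, so that these neighbours did not differ beyond their spread. In Eµ-TCL1 mice Rgs19 came first with 148 ± 22.1 TPM, above Rgs2 with 109 ± 13.8 TPM, and the ranges of this pair did not overlap. In Eµ-MTCP1 mice Rgs19 (135 ± 40.6 TPM), Rgs2 (105 ± 107 TPM), Rgs1 (46.2 ± 65.6 TPM) and Rgs14 (30.6 ± 4.04 TPM) overlapped from neighbour to neighbour. On the authors' standard reference, which holds whole transcripts, Rgs2 and Rgs19 exchanged places in wildtype mice (Rgs2 133 TPM, Rgs19 142 TPM) and their ranges overlapped.

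In tests across all genes, 8 of the 9 members were tested and 0 were called in any comparison by the quasi-likelihood test of edgeR at a Benjamini-Hochberg adjusted p under 0.05. Over all 11247 genes tested, 9.37% were called in Eµ-MTCP1 against wildtype, 9.15% in Eµ-TCL1 against wildtype, 0.0445% in Eµ-TCL1 against Eµ-MTCP1 and 13.1% for the mean of both transgenic groups against wildtype. At an unadjusted p under 0.05 the members numbered 1 (Rgs10), 1 (Rgs18), 1 (Rgs18) and 2 (Rgs10 and Rgs18) of 8, where 24.9, 25, 6.44 and 29.1% of all tested genes had such a p. DESeq2 called Rgs18 in Eµ-TCL1 against wildtype and no other member, and limma-voom called 0 members. The median log2 fold change of the 8 tested members against wildtype was -0.44 for Eµ-MTCP1 and -0.35 for Eµ-TCL1, where that of all genes was -0.02 and -0.01. Between the transgenic groups it was 0.11, beside 0.00 for all genes. With bulk libraries, fewer cells of a type and less RNA per cell cannot be told apart.

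**Figure D1:**
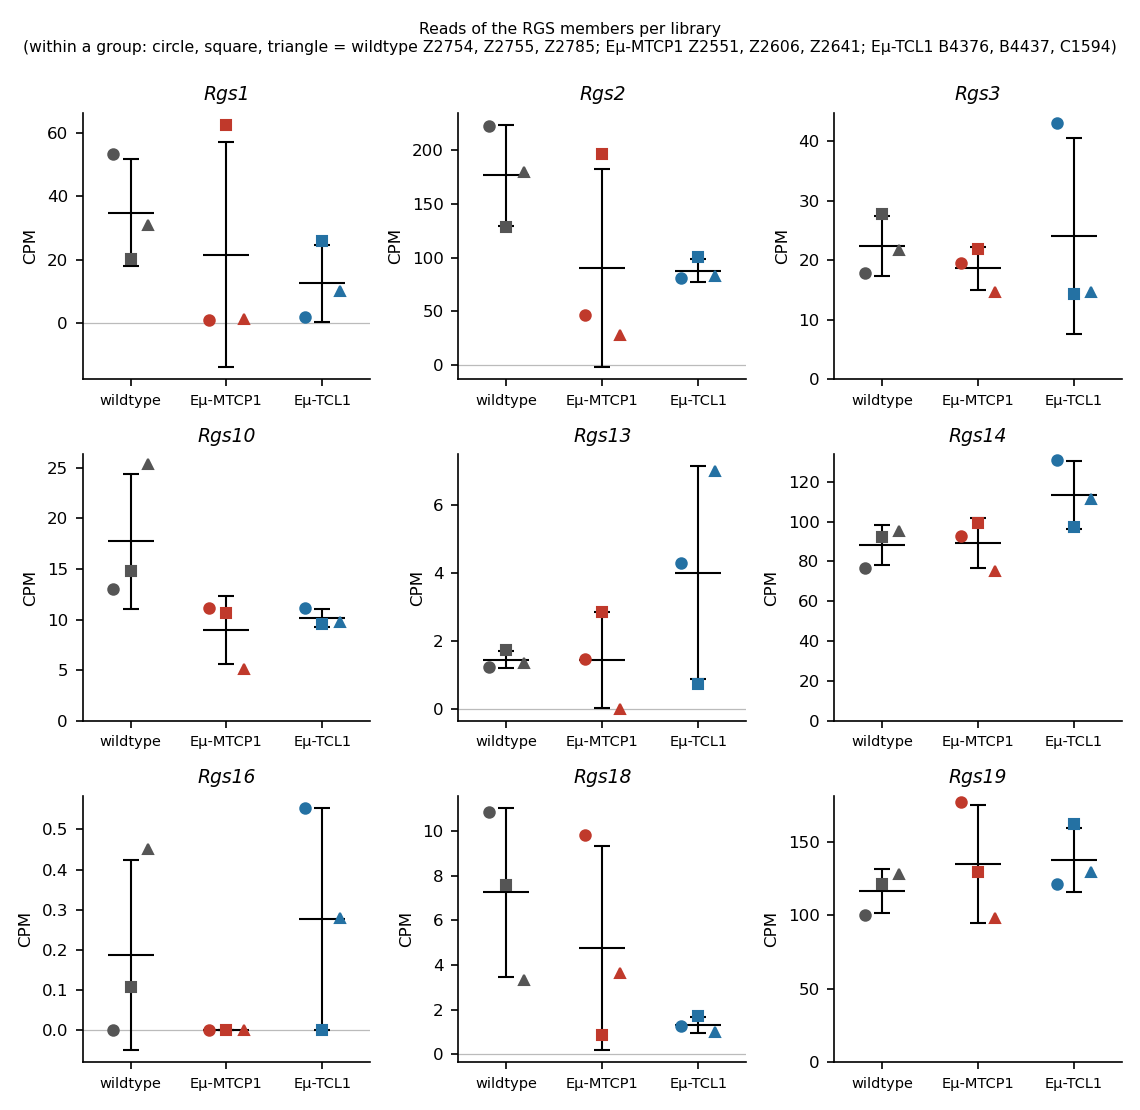
CPM of each of the 9 members (vertical axes, linear) in the 9 mice, by group on the horizontal axes. Points are single mice, bars the group mean and whiskers ±1 SD. Rgs1 and Rgs2 of Eµ-MTCP1 mouse Z2606 stand at 62.6 and 197 CPM, far above the other 2 mice of that group.

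Rgs1, a brake on chemokine responses that activated and germinal center B cells carry, was the most variable member. It stood at 53.3, 20.4 and 30.9 CPM in wildtype mice Z2754, Z2755 and Z2785, at 0.98, 62.6 and 1.32 CPM in Eµ-MTCP1 mice Z2551, Z2606 and Z2641, and at 1.79, 25.9 and 10.1 CPM in Eµ-TCL1 mice B4376, B4437 and C1594. Of the 6 transgenic mice, 4 were below every wildtype mouse, B4437 lay among them, and Z2606 was the highest of all 9. In reads these are 6, 442 and 8 in the Eµ-MTCP1 mice, 13, 211 and 72 in the Eµ-TCL1 mice, and 188 to 431 in wildtype mice. The log2 fold change was -0.68 ± 1.25 (SE; 95% interval -3.46 to 2.10, edgeR adjusted p = 0.770) in Eµ-MTCP1 and -1.46 ± 1.28 (-4.30 to 1.37, edgeR adjusted p = 0.522) in Eµ-TCL1 mice against wildtype. With transcript-length offsets the former was 0.02, the 1 positive value among 23 settings, the lowest of which was -4.95. In TPM, Rgs1 in Z2641 stood at 15.6 on the reference used for testing and at 2.45 on the standard one. Across the 6 transgenic mice the SD of log2 CPM was 2.35 for Rgs1, larger than that of 99.3% of the 9154 tested genes with a mean of at least 5 CPM, whose median SD was 0.339.

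Rgs2, an inducible regulator known for its action on Gq and on cAMP signaling, varied in a like order. Wildtype mice Z2754, Z2755 and Z2785 had 222, 128 and 180 CPM, Eµ-MTCP1 mice Z2551, Z2606 and Z2641 had 46.8, 197 and 28.3 CPM, and Eµ-TCL1 mice B4376, B4437 and C1594 had 80.8, 100.3 and 83.0 CPM. All Eµ-TCL1 mice and 2 of 3 Eµ-MTCP1 mice were below the lowest wildtype mouse, and Z2606 was within the wildtype range. Rgs2 changed by a log2 of -0.96 ± 0.57 (95% interval -2.23 to 0.31, edgeR adjusted p = 0.324) in Eµ-MTCP1 and of -1.01 ± 0.57 (-2.28 to 0.26, edgeR adjusted p = 0.312) in Eµ-TCL1 mice, neither of which passed the test. Within Eµ-MTCP1 mice its SD of log2 CPM was 1.45, against 0.170 within Eµ-TCL1 and 0.399 within wildtype mice. In both transgenic groups the mouse with the most Rgs1 was also that with the most Rgs2 (Z2606 and B4437).

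A single mouse decided whether these genes were called. Without Eµ-MTCP1 mouse Z2606, both Rgs1 (log2 fold change -4.95, edgeR adjusted p = 0.0231) and Rgs2 (-2.28, edgeR adjusted p = 0.00323) were called lower in Eµ-MTCP1 against wildtype, and both were called lower for the mean of the transgenic groups (-3.23 and -1.66, edgeR adjusted p = 0.0159 and 0.00184). Rgs2 was then also called lower in Eµ-TCL1 against wildtype (-1.05, edgeR adjusted p = 0.0385), although Z2606 is in neither of these groups and enters that comparison only through the shared fit. With only Eµ-TCL1 and wildtype mice in the fit its adjusted p in edgeR was 0.0283. Whether Z2606 resembled wildtype more broadly was described with genes called in Eµ-MTCP1 against wildtype in the fit that left it out. Of 941 such genes, the 939 that were also tested with all 9 libraries were each placed on a scale from 0 (mean of the wildtype mice) to 1 (mean of the other 2 Eµ-MTCP1 mice). Its median position over these genes was 0.787, and 76.3% of them lay nearer to 1 than to 0. Rgs1 and Rgs2 lay at -0.21 and -0.08, on the wildtype side. The other 5 transgenic mice, placed in the same way, had medians between 0.827 and 1.08. The summed CPM of 6 plasma cell markers was 2953 in Z2606, the highest of all libraries (128 to 1994 in the others), and its part in the Rgs1 and Rgs2 levels was not tested.

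**Figure D2:**
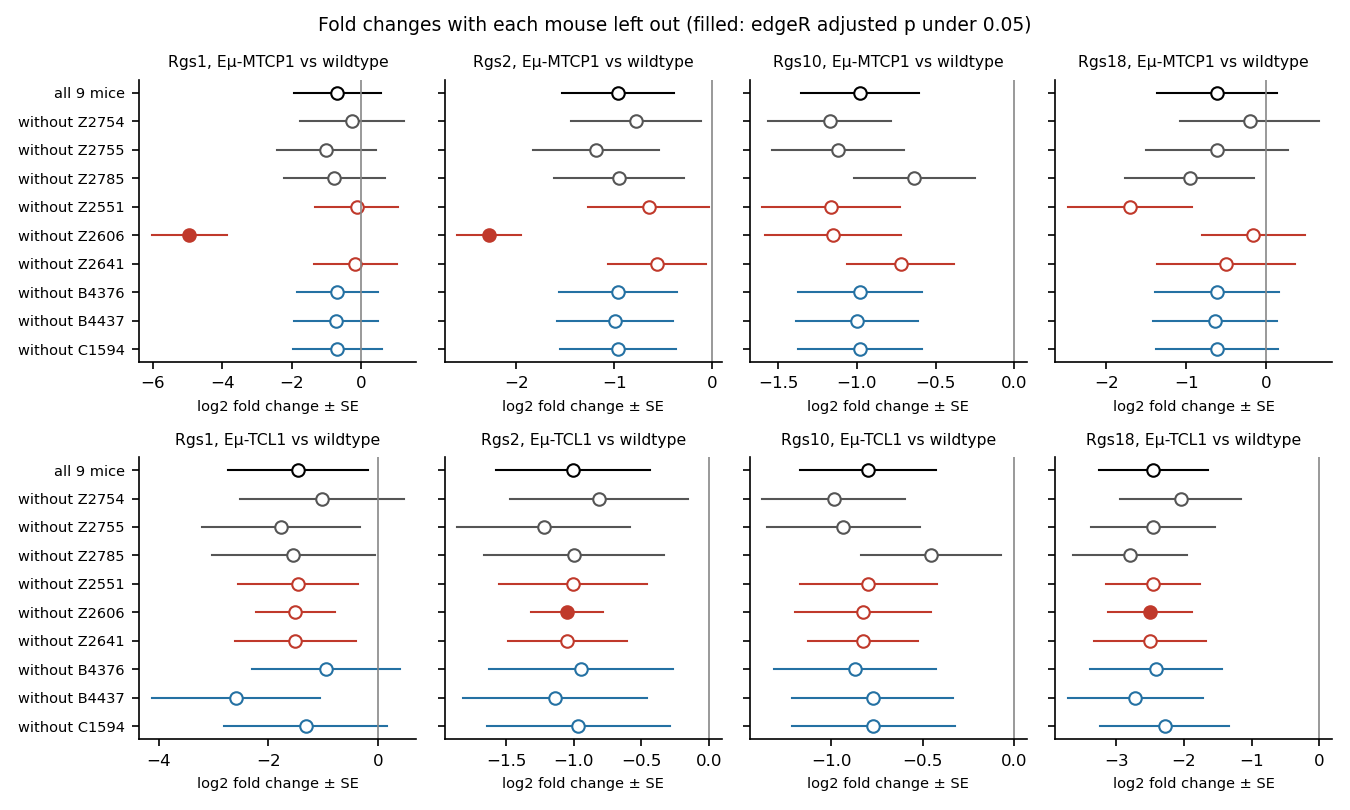
Log2 fold changes against wildtype (horizontal axes, ±1 SE) of Rgs1, Rgs2, Rgs10 and Rgs18 with all 9 mice and with each mouse left out (vertical axes), for Eµ-MTCP1 mice (top) and Eµ-TCL1 mice (bottom). Filled points have an edgeR adjusted p under 0.05, which occurs only without Z2606: Rgs1 at -4.95 and Rgs2 at -2.28 in the top row, Rgs2 at -1.05 and Rgs18 at -2.50 in the bottom row.

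Among the other R4 members, Rgs18 had its lowest group mean in Eµ-TCL1 mice. Rgs18, a regulator best known from platelets and other hematopoietic cells, stood at 10.9, 7.58 and 3.32 CPM in wildtype mice Z2754, Z2755 and Z2785, at 9.82, 0.85 and 3.62 CPM in Eµ-MTCP1 mice Z2551, Z2606 and Z2641, and at 1.24, 1.72 and 0.98 CPM in Eµ-TCL1 mice B4376, B4437 and C1594. Every Eµ-TCL1 mouse was below every wildtype mouse, while the Eµ-MTCP1 mice spread over the range of both. The log2 fold change was -2.45 ± 0.81 in Eµ-TCL1 mice (95% interval -4.24 to -0.66), which did not pass after adjustment in edgeR (adjusted p = 0.0882) and did in DESeq2 (adjusted p = 0.0208). In edgeR it passed without Eµ-MTCP1 mouse Z2606 (adjusted p = 0.0361) and with only the groups compared (adjusted p = 0.0292). In Eµ-MTCP1 mice it was -0.61 ± 0.75 (edgeR adjusted p = 0.651). The difference between Eµ-TCL1 and Eµ-MTCP1 mice, -1.84 ± 0.80 on the log2 scale (95% interval -3.62 to -0.06), did not pass either (edgeR adjusted p = 0.755). These levels rest on 7 to 14 reads in Eµ-TCL1 and 22 to 88 reads in wildtype mice.

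Platelet and megakaryocyte markers were low throughout. Of 8 such genes, 3 were tested and 1, Itgb3, was called lower in both transgenic groups. The summed CPM of the list was 9.35 to 11.6 in wildtype mice, up to 4.94 in Eµ-MTCP1 mice and up to 4.75 in Eµ-TCL1 mice. Without Itgb3, a split made after the values were seen, the other 7 summed to 2.41 to 3.83 in wildtype mice, while Eµ-MTCP1 mice had 3.26 to 4.45 and Eµ-TCL1 mice 2.07 to 3.77, with overlap. The defining marker Ppbp was at 0 reads in all 9 libraries, and Pf4 had 3 reads or fewer in each. Their part in the Rgs18 levels was not tested.

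Rgs13, typical of germinal center B cells, was scarce and uneven. It had 10, 16 and 9 reads (1.24, 1.73 and 1.36 CPM) in wildtype mice Z2754, Z2755 and Z2785, 9, 20 and 0 reads in Eµ-MTCP1 mice Z2551, Z2606 and Z2641, and 31, 6 and 50 reads (4.28, 0.74 and 6.98 CPM) in Eµ-TCL1 mice B4376, B4437 and C1594. In Z2641 it was not detected, which allows up to 3 reads. Of the Eµ-TCL1 mice, 2 were above and 1 below all wildtype mice, and the log2 fold change of 1.45 ± 1.05 had a 95% interval from -0.87 to 3.78 (edgeR adjusted p = 0.430). Of 7 germinal center markers, 6 were tested. Bcl6 and Gcsam were called lower in both transgenic groups, Mki67, a proliferation marker, was called higher in Eµ-MTCP1 mice, and the summed CPM was highest (527) in Z2641, the library without Rgs13 reads, where Mki67 alone had 513 CPM. The other 6 markers summed to 13.7 CPM in Z2641, the lowest value, to at most 37.4 CPM in the other transgenic mice and to 72.2 to 99.1 CPM in wildtype mice, a split made after their values were seen. The part of these markers in the Rgs13 levels was not tested.

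Rgs3, whose longer forms carry further domains beside the RGS domain, stood at 17.8 to 27.7 CPM in wildtype, 14.7 to 21.8 CPM in Eµ-MTCP1 and 14.3, 14.7 and 43.1 CPM in Eµ-TCL1 mice, the last in B4376. The log2 fold changes against wildtype were -0.26 ± 0.42 in Eµ-MTCP1 and 0.10 ± 0.42 in Eµ-TCL1 mice (edgeR adjusted p = 0.733 and 0.912). On the reference used for testing, B4376 was the highest library on several Rgs3 transcripts. Rgs3-204 had 209.1 reads in B4376, against 38.0 to 151.2 in the other libraries. Rgs3-216 had 33.6, against 0 to 20.6, and Rgs3-203 had 24.9, against 0 to 17.2. B4376 also had the highest summed CPM of 8 T-cell markers (71.2, against 3.90 to 23.1 elsewhere) and of 6 NK-cell markers (121, against 3.35 to 74.5), as well as of the monocyte and macrophage markers (1445, against 364 to 1315), whose part in the Rgs3 level was not tested. Rgs16, another inducible member, had 0 to 4 reads per library, at or near the floor, and was too low to be tested. In the authors' whole-gene table it had 17 counts in B4376, 2 to 11 in wildtype mice and 1 to 3 in the other transgenic mice. In the 6 settings that did test it, its lowest adjusted p was 0.305.

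**Figure D3:**
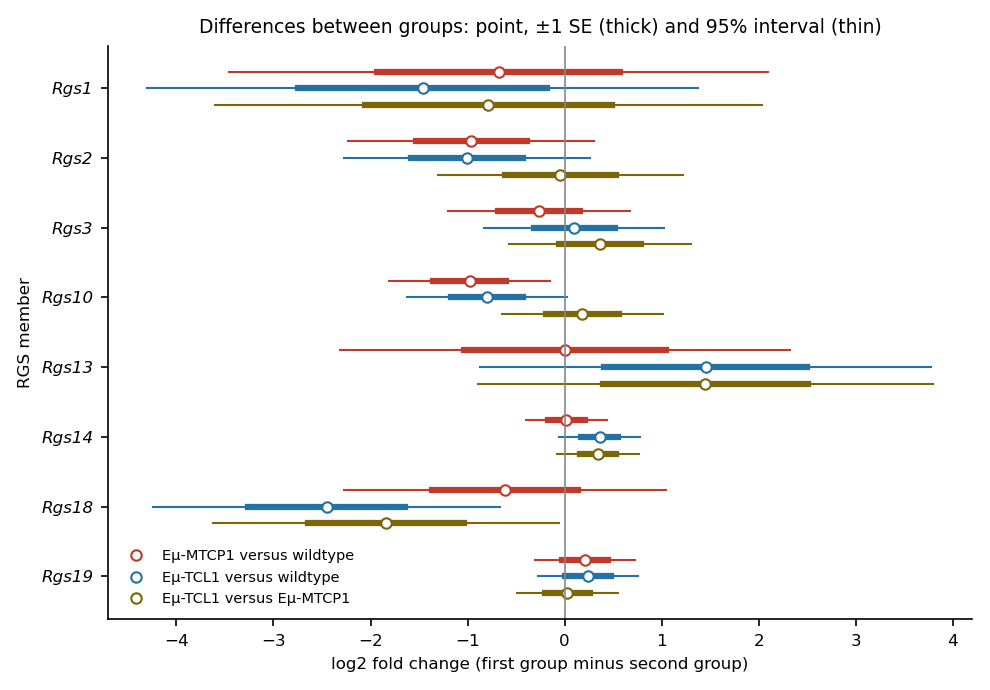
Log2 fold changes (horizontal axis) of the 8 tested members (vertical axis) in the 3 comparisons between groups, with ±1 SE as thick and 95% intervals as thin lines. Rgs14 and Rgs19 have the shortest intervals, within 1 log2 unit of 0, and that of Rgs1 in Eµ-MTCP1 mice runs from -3.46 to 2.10.

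In the R12 group, Rgs10 was the one member with lower values in every transgenic mouse than in any wildtype mouse. Rgs10, a small regulator abundant in immune cells, stood at 13.0, 14.8 and 25.3 CPM in wildtype mice Z2754, Z2755 and Z2785, at 11.1, 10.6 and 5.11 CPM in Eµ-MTCP1 mice Z2551, Z2606 and Z2641, and at 11.2, 9.56 and 9.78 CPM in Eµ-TCL1 mice B4376, B4437 and C1594. The gap between the groups was narrow, from 11.2 to 13.0 CPM. Of all tested genes, 9.14% were lower in all 6 transgenic mice in the same sense. The log2 fold change was -0.98 ± 0.37 (95% interval -1.81 to -0.15, edgeR adjusted p = 0.138) in Eµ-MTCP1, -0.80 ± 0.37 (-1.62 to 0.03, edgeR adjusted p = 0.216) in Eµ-TCL1 mice, and -0.89 ± 0.31 (-1.58 to -0.20, edgeR adjusted p = 0.0897) for the mean of both. It was negative in every setting tried for these comparisons, and passed only for the mean of both groups when libraries were scaled by their size alone (edgeR adjusted p = 0.0421).

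Counted by groups that did not overlap, 1 of 8 members (Rgs10) was lower in Eµ-MTCP1 than in wildtype mice, as were 15.3% of all tested genes. In Eµ-TCL1 mice 3 of 8 members (Rgs2, Rgs10 and Rgs18) were lower, as were 16% of all tested genes, and 1 (Rgs14) was higher, as were 16.6%.

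Rgs14, a scaffold that joins an RGS domain to Ras-binding domains and a GoLoco motif, differed little in level. It stood at 76.6, 92.4 and 95.3 CPM in wildtype, 75.1 to 99.4 CPM in Eµ-MTCP1 and 97.0 to 131 CPM in Eµ-TCL1 mice. The log2 fold changes were 0.02 ± 0.19 (95% interval -0.40 to 0.44, edgeR adjusted p = 0.965) in Eµ-MTCP1 and 0.36 ± 0.19 (-0.06 to 0.78, edgeR adjusted p = 0.268) in Eµ-TCL1 mice. Its division among annotated transcripts did vary between mice. On the standard reference, reads assigned to Rgs14-202, a retained-intron transcript, were 0 in all 3 wildtype mice, 102.4, 85.0 and 435.3 in Eµ-MTCP1 mice Z2551, Z2606 and Z2641, and 22.6, 0 and 57.3 in Eµ-TCL1 mice B4376, B4437 and C1594. These are 9.70, 6.53 and 42.5% of the Rgs14 reads of the Eµ-MTCP1 mice and 1.39, 0 and 3.78% of those of the Eµ-TCL1 mice. All Eµ-MTCP1 mice were above all wildtype mice, and Z2641 alone held more of these reads than the 5 other transgenic mice together. Of all tested genes, 14.7% were higher in CPM in every Eµ-MTCP1 mouse than in every wildtype mouse. The like share among transcripts of the standard reference is not given here. Over the whole library, retained-intron transcripts took 5.81% of the reads in Z2641, 5.13 to 5.42% in the other transgenic mice and 5.51 to 6.70% in wildtype mice. Transcripts annotated for nonsense-mediated decay took 5.41% in Z2641 and 3.10 to 4.78% elsewhere, and mitochondrial genes 8% in Z2641, 3.52 to 4.56% in the other transgenic mice and 2.91 to 10.7% in wildtype mice, where Rgs14-202 had 0 reads. The summed CPM of 7 neutrophil markers was 1286 in Z2641, 12.2 to 204 in the other transgenic mice and 161 to 1591 in wildtype mice. That of 7 erythroid markers was 321 in Z2641, 24.0 to 71.5 in the other transgenic mice and 36.6 to 175 in wildtype mice. The part of any of these in the Rgs14-202 reads was not tested.

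The start of Rgs14-202 (chr13:55379169-55379332, plus strand, GRCm38) is shown because it holds bases outside the exons of the main transcript Rgs14-201. The first exon of Rgs14-202 begins within intron 5, between exons 5 and 6 of the 15 exons of Rgs14-201. Capitals mark the 134 bases that lie in that intron, and the lower-case letters are the first 30 bases of exon 6.
Rgs14-202: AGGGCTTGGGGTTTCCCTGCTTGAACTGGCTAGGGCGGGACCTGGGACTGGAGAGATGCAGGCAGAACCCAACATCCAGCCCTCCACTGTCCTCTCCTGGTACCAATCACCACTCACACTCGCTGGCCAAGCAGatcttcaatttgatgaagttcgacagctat
The reads given to this transcript are those that Salmon divided between overlapping transcripts, not only reads within these bases. The share of Rgs14 reads on Rgs14-201 was 87.7 ± 16.5% (SD, n = 6) in transgenic and 98.7 ± 0.176% (n = 3) in wildtype mice, which did not pass a two-sided exact permutation test (p = 0.0714, adjusted over 6 members p = 0.429; the smallest p this design allows is 0.0119, or 0.0714 after adjustment where 1 of the 6 differs). On the reference used for testing, which lacks this transcript, 5 members had at least 20 reads in every library and more than 1 transcript, and 0 of them passed the same exact permutation test on the share of their leading transcript. A difference in 1 member alone could not have passed it, since its adjusted p could not go below 0.0595. The nearest was Rgs19-206, with 56.7% in transgenic and 62.3% in wildtype mice (p = 0.167 by the exact permutation test, adjusted p = 0.833).

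**Figure D4:**
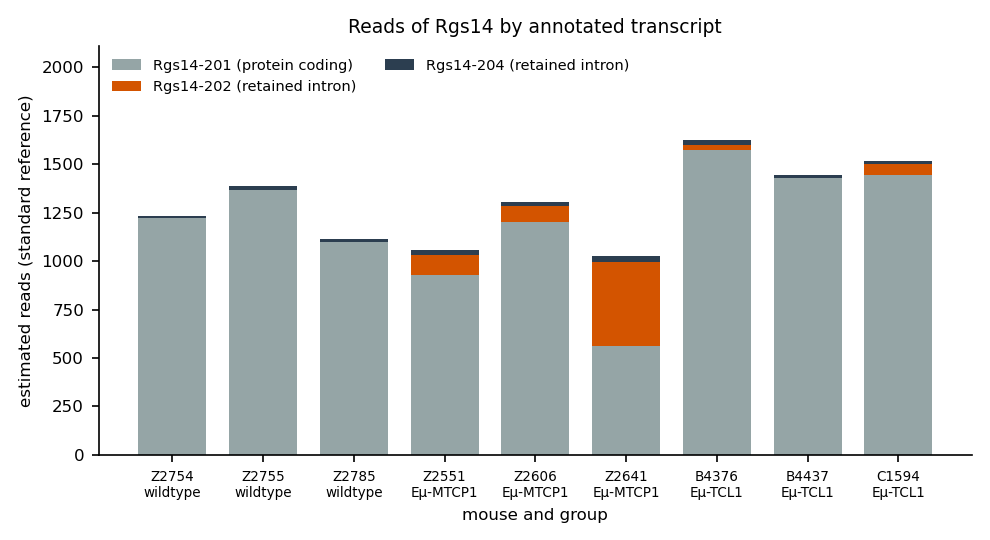
Estimated reads of Rgs14 on the standard reference (vertical axis, bars from 0) in each mouse (horizontal axis), stacked by annotated transcript. Rgs14-202 is absent from the wildtype bars and reaches 435.3 reads in Z2641. Rgs14-203, with 1.2 reads in 1 library, is not drawn.

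Rgs19, a regulator of Gi known from vesicle trafficking, was steady across groups. Its CPM was 117 ± 14.8 (SD, n = 3) in wildtype mice, lay between 98.0 and 177 in Eµ-MTCP1 and between 121 and 162 in Eµ-TCL1 mice, and all 3 groups overlapped. The log2 fold change was 0.21 ± 0.23 (95% interval -0.31 to 0.73, edgeR adjusted p = 0.610) in Eµ-MTCP1 and 0.24 ± 0.23 (-0.28 to 0.76, edgeR adjusted p = 0.570) in Eµ-TCL1 mice. Changes of more than 1 log2 unit are outside both intervals. As the member with the highest mean level (130 CPM), it was compared with other genes over the 9 libraries. The genes nearest to it in pattern, by the root mean square difference of centred log2 CPM, were Ptdss1 (0.088), Wdr1 (0.124) and Rbm10 (0.124), where the pattern of Rgs19 itself has a root mean square of 0.263.

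The other genes of the pathway were counted by list. Of the 12 other Rgs genes, 8 had no read in any library, and the 2 that could be tested, Rgs11 and Rgs12, were not called. Of 13 other proteins with an RGS or RGS-like domain, such as the RhoGEF Arhgef1 and the receptor kinase Grk2, 12 were tested and 0 called in any comparison with edgeR on the main counts, with 3 and 4 at an unadjusted p under 0.05 in Eµ-MTCP1 and Eµ-TCL1 mice against wildtype. Of 13 G protein alpha subunits, among them the substrates of RGS proteins, 8 were tested and 0 called, with 1 and 1 at an unadjusted p under 0.05. Of 6 receptor kinases and arrestins, which switch receptors off, 6 were tested and 0 called, with 1 and 2 at an unadjusted p under 0.05. These unadjusted counts stand beside 24.9 and 25% of all tested genes. By DESeq2 on the main counts, Grk3 passed as lower and Gnai2 as higher in Eµ-MTCP1 mice, and Gna15 as lower in Eµ-TCL1 mice, while limma-voom called 0 genes of these lists in either comparison. These 0 counts did not hold on every read table and scaling. With edgeR, the standard reference gave calls of Arhgef12 (higher in both transgenic groups), Grk3 (lower in Eµ-MTCP1) and Arrb1 (higher in Eµ-TCL1). The whole-gene table gave Grk3 (lower in Eµ-MTCP1), Gnal (lower in both) and Arrb1 (higher in Eµ-TCL1), and library size alone gave Akap10 and Grk3 (lower in Eµ-MTCP1). With only the groups compared, or without Z2606, Gna15 was called lower in Eµ-TCL1 mice. For the mean of both transgenic groups Snx13, Akap10, Axin1 or Gnal passed as lower and Arhgef12, Arrb1 or, by DESeq2, Gnai2 as higher in some settings. On the other read tables DESeq2 called 0 to 3 genes per list. The genes in these sentences were named after their values were seen.

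The receptors upstream of RGS proteins were the list with calls. Of 19 chemoattractant and lipid receptors of B cells, 19 were tested, and 6 were called lower and 0 higher in Eµ-MTCP1 against wildtype, where the median log2 fold change was -0.53. Of all 11247 genes tested there, 443 were called lower and 611 higher, and the median was -0.02. In Eµ-TCL1 against wildtype 7 were called lower and 1 higher, with a median of -0.61, beside 459 lower and 570 higher and a median of -0.01 over all genes. Between the transgenic groups 0 receptors were called by edgeR, DESeq2 or limma-voom, and 3 of 19 had an unadjusted p under 0.05, as had 6.44% of all genes. Ccr6, the receptor for Ccl20, fell from 131 to 143 CPM in wildtype mice to 3.95 to 6.71 CPM in Eµ-MTCP1 and 0.42 to 8.97 CPM in Eµ-TCL1 mice (log2 fold changes -4.78 ± 0.68 and -5.06 ± 0.68, edgeR adjusted p = 0.00193 and 0.00141). Ccr7, which leads lymphocytes to T-cell zones, fell by a log2 of -3.47 ± 0.45 and -2.83 ± 0.44 (edgeR adjusted p = 0.00122 and 0.00294). Cxcr3, an interferon-linked chemokine receptor, fell by a log2 of -2.43 ± 0.65 and -2.68 ± 0.65 (edgeR adjusted p = 0.0418 and 0.0287), calls that edgeR did not make in either comparison on the standard reference or the whole-gene table. P2ry10, a lysophosphatidylserine receptor, changed by -1.69 ± 0.37 in Eµ-MTCP1 and the cannabinoid receptor Cnr2 by -1.85 ± 0.19 in Eµ-TCL1 mice (edgeR adjusted p = 0.0182 and 0.000361). The receptor called higher was Lpar5 (1.69 ± 0.46, edgeR adjusted p = 0.0463), named after its value was seen. On the standard reference and on the whole-gene table edgeR called P2ry12 in its place.

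Markers of dendritic cells and, in Eµ-MTCP1 mice, of NK cells were also low. The summed CPM of 6 dendritic cell markers was 14.8 to 33.8 in wildtype mice, while Eµ-MTCP1 mice had 4.61 to 13.6 and Eµ-TCL1 mice 4.89 to 9.25. These sums include Flt3 and are not given without it, so a fall of the list as a whole is not shown. Of the 3 that could be tested, 1 (Flt3) was called lower in Eµ-TCL1 mice and 0 in Eµ-MTCP1 mice (1 at an unadjusted p under 0.05). In each comparison 1 of the 3 tested had a positive log2 fold change. The defining marker Clec9a had 3 reads or fewer in every library. The 6 NK-cell markers summed to 39.9 to 74.5 CPM in wildtype mice and 19.4 to 25.2 CPM in Eµ-MTCP1 mice. Eµ-TCL1 mice B4376, B4437 and C1594 had 121, 16.3 and 3.35 CPM. Of the 4 tested, 0 were called by edgeR (1 and 0 at an unadjusted p under 0.05). The part of these cells in the receptor levels was not tested.

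Single mice moved the receptor counts. The 6 receptors lower in Eµ-MTCP1 mice became 3 without wildtype mouse Z2754 or Eµ-MTCP1 mouse Z2641, and 4 without Z2785, Z2755 or Z2551. The 7 lower in Eµ-TCL1 mice became 3 without Z2754 and 4 without B4437, and the call of Lpar5 was lost in several of these fits. Ccr6, Ccr7 and Cnr2 were called lower in both comparisons under every setting tried. In Z2606, whose Rgs1 and Rgs2 were not below the wildtype range, Ccr6 was at 4.11 and Ccr7 at 80.3 CPM, against 464 to 525 CPM of Ccr7 in wildtype mice.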

How the data were processed

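Salmon (1.0.0 per the labels) was run by the authors on each library, against 2 references: a standard mouse transcriptome (140748 transcripts) and a custom one (57871 transcripts, some of them human). Of its output, the estimated counts as deposited are not normalized, and the deposited TPM values are normalized by length and library. Whole-number counts per gene were deposited by the authors as a table of 50600 genes, and again after their coverage filter (CLEAR), where 9 of 9 libraries passed for all members but Rgs13 (8) and Rgs16 (4). Values on a log2 scale, normalized with DESeq2 by the authors, were used for the transgenes only. Their fold changes and p-values were not used. There were 0 unused columns of per-sample values. In the custom reference 87.26% of transcript lengths are multiples of 3, against 35.01% in the standard one, so it holds mostly coding sequence.

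Transcripts were joined to genes with GENCODE M21 (GRCm38), which covered 57412 of them; at most 0.291% of reads lay on mouse transcripts outside it, which were kept as single rows. Counts were summed per gene, rounded, filtered (filterByExpr, 11247 genes kept), scaled by TMM (factors 0.912 to 1.18) and tested with edgeR 4.0.16 (R 4.3.3). A single model held the 9 libraries with their 3 group means, and two-sided p-values were Benjamini-Hochberg adjusted over all genes tested. The SE is the log2 fold change divided by the square root of F. Leading transcript shares were tested by exact permutation over mice (84 divisions of 6 against 3). Alternatives included DESeq2 1.42.0, limma-voom (limma 3.58.1), other scalings, filters and read tables, and leaving out each mouse. The tests were checked on simulated data. All members were named, and from each list those called, at most 4 per comparison. Genes nearest in pattern were sought for members called, otherwise for the member with the highest mean CPM. Members and lists were chosen with earlier results of these data known. Intervals and the floor of 3 reads cover counting and mouse-to-mouse error only, since duplicates of amplification cannot be removed. Each library is 1 mouse. Whether strand was used in counting is not given in the sources used here.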

Additional observations from a re-analysis of the deposited data

Results flagged for a closer look

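The retained-intron transcript Rgs14-202 drew attention as a signal outside the main measurement: it is not in the reference used for testing, and its mean on the standard reference was 207.6 estimated reads in Eµ-MTCP1 mice, with all 3 mice above the 0 reads of every wildtype mouse. The value rests largely on mouse Z2641, with 435.3 reads against 85.0 and 102.4 in the other 2. By gene, 14.7% of all tested genes were likewise higher in all 3 Eµ-MTCP1 mice than in every wildtype mouse.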

How the results depend on the processing

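No paired analysis was possible because the replicate numbers follow the order of deposition and pair no mice. For members called, 82 of 91 counts under other settings equalled the main count of 0. The exceptions were, in Eµ-TCL1 against wildtype, 1 with DESeq2 (also on the whole-gene and on the standard counts) and 2 with only the groups compared (Rgs2 and Rgs18), and, for the mean of both groups, 1 with library size alone (Rgs10) and 1 with DESeq2 on the whole-gene table (Rgs18). With each mouse left out the counts ran from 0 to 2, 0 to 2, 0 to 0 and 0 to 2 (Eµ-MTCP1, Eµ-TCL1, Eµ-TCL1 against Eµ-MTCP1, mean), the 2 without Z2606 each time. For all genes, DESeq2 called 1657, 1697 and 74 in the first 3 comparisons, on whole-gene counts in all 4 comparisons 2267, 2257, 93 and 2876, and on the standard reference 2240, 2248, 101 and 2852, where edgeR called 1054, 1029, 5 and 1472 on the main counts, 1462, 1459, 4 and 2037 on the whole-gene counts and 1428, 1370, 8 and 1994 on the standard reference. In the third, no filter gave 15. With each mouse left out, 531 to 1019, 520 to 1233, 5 to 8 and 771 to 1610 genes were called. Counts moved by over 1.5 times without wildtype mouse Z2754 (531, 520 and 771 in the comparisons with wildtype) or Z2755 (563, 553 and 794), without Z2551 (603 in Eµ-MTCP1) and without C1594 (662 in Eµ-TCL1, 8 between the transgenic groups). With library size as the only scaling, the median of all genes was -0.26, -0.15 and -0.21 (log2) in the comparisons with wildtype, and the split of higher and lower calls went from 611 and 443 to 397 and 731, from 570 and 459 to 448 and 587, and from 781 and 691 to 567 and 1167. Without immunoglobulin genes the first 2 splits were 595 and 282, and 556 and 286. DESeq2 on the other tables and length offsets on the standard reference were added after seeing the data. The cause of these differences was not tested. Of 727 member fold changes, 664 kept their call within the spread, 50 moved and 13 passed the threshold. Depth limits Rgs16 and Rgs13 most, with 0 to 4 and 0 to 50 reads per library.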
